A study of Mus musculus with 9 samples.

Results

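The insulin-like growth factor (IGF) genes were followed in neonatal mouse cardiac fibroblasts 14 days after virus infection. They are the ligands Igf1 and Igf2, the receptors Igf1r and Igf2r, and the binding proteins Igfbp2 to Igfbp7. All 10 were taken by name from a table of 34779 named genes, and all 10 were among the 13228 genes with a mean of at least 1 TPM that were tested. TPM is a share of all transcripts corrected for their length, so levels of different genes can be set side by side. The 9 libraries were RNA sequencing of wild-type cells in 3 groups of 3. MGT+TMP269 cells were infected to express Mef2c, Gata4 and Tbx5 (MGT), transcription factors of the developing heart, and were given TMP269. This compound inhibits class IIa histone deacetylases, and the labels name HDAC4 as its target. Its dose is not given in the sources used here. MGT cells had the same infection without the compound, and DsRed cells an infection with a red fluorescent protein. All groups were infected 24 h after seeding and kept in medium with fetal bovine serum. The titles call the 3 libraries of a group biological replicates. No animals, cultures or sorting of infected cells are named, so what the replicate spread behind the p-values covers is not known.

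IGF-1 and IGF-2 are secreted peptides that act through the IGF-1 receptor, a tyrosine kinase, to promote growth and survival through PI3K, AKT and MAP kinases. The IGF-2 receptor, which is also the cation-independent mannose 6-phosphate receptor, takes up IGF-2 for breakdown in lysosomes. The binding proteins hold IGFs outside the cell and can block or prolong their action, and proteases such as PAPP-A free the ligand by cutting them. In the heart, IGF-1 is made by stromal cells and macrophages and acts on cardiomyocytes.

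The sequences upstream of the transcription start are shown for the 4 members with a single annotated start that were called lower in MGT+TMP269 than in DsRed cells. Each is 250 bases that end at the base before the start, from RefSeq on build GRCm38.p6, printed 5′ to 3′ on the gene's strand, with TATAAA or TATATA in capitals.
Igf1 (chr10:87860861-87861110, plus strand): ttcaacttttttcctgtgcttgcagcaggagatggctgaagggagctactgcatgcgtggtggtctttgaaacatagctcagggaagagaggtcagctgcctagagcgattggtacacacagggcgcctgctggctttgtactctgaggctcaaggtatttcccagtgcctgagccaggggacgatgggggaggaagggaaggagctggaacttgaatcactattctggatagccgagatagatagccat
Igfbp3 (chr11:7213924-7214173, minus strand): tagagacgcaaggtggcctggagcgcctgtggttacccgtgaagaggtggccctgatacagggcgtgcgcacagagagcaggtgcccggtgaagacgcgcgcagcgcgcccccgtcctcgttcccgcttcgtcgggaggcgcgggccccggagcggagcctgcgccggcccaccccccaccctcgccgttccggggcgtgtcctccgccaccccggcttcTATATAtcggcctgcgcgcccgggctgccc
Igfbp4 (chr11:99040994-99041243, plus strand): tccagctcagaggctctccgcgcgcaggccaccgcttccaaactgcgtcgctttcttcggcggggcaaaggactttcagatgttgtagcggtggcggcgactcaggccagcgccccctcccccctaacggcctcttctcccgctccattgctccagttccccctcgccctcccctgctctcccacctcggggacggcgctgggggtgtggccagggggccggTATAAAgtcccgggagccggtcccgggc
Igfbp6 (chr15:102143936-102144185, plus strand): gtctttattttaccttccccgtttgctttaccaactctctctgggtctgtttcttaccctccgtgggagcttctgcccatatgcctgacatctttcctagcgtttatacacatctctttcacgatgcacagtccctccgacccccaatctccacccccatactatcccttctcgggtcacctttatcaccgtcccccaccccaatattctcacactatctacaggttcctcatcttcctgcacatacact
The Igfbp3 window holds TATATA starting 30 bases upstream of the start, and the Igfbp4 window holds TATAAA starting 28 bases upstream. On the gene's strand, TATATA occurs in 5.25% and TATAAA in 7.59% of 32851 such windows. These windows leave out a chromosome that holds none of the members. Both motifs were added after the sequences were seen. The windows of Igfbp3 and Igfbp4 are 73.2% and 69.2% G and C, and those of Igf1 and Igfbp6 52.8% and 49.6%, against a median of 52.4% over all windows. On either strand, none of the members' windows, the 4 of Igf2 and 2 of Igfbp2 included, held the GATA motif AGATAA, the T-box motif AGGTGT, the FOXO motif GTAAACA or any of 3 MEF2 motifs of 10 letters. Of all windows, 9.99%, 11.8%, 3.17% and 0.244% hold the GATA, T-box, FOXO and MEF2 motifs.

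DsRed replicate 2 stood apart, and it enters every comparison with DsRed and the shared estimate of the spread. Where leaving it out changed the call of a member or moved its log2 fold change by over 1.5 times, that is stated beside the result. Its correlation with the other DsRed libraries across genes was between 0.942 and 0.943, and the upper quartile of its values was 5.38 TPM, where the rest had 8.69 to 9.57 TPM. Each library summed to between 988020 and 988999 TPM, and read depth is unknown with this unit. All 12 fibroblast markers, among them Col1a1, Pdgfra and Vim, averaged above 1 TPM in every group. The 10 cardiomyocyte markers summed to between 13976 and 15157 TPM in MGT+TMP269, 11015 and 11975 TPM in MGT and 244 and 338 TPM in DsRed libraries. Summed TPM of 17 macrophage markers ran from 108 to 163 in MGT+TMP269, from 1866 to 3500.3 in MGT and from 740.4 to 2052 in DsRed libraries. In such bulk samples, fewer cells of a type and less RNA per cell cannot be told apart.

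By level, binding proteins dominated the family. Igfbp7, a secreted protein that binds IGFs only weakly, was the most abundant member in every group, at 3601 ± 131 TPM in MGT+TMP269, 5224 ± 113 TPM in MGT and 4223 ± 234 TPM in DsRed cells (SD, n = 3 each). Its mean ranked 23rd, 8th and 16th in these groups among all named genes. Igfbp2 came next, at 622.1 ± 48.5, 987.5 ± 48.7 and 507.1 ± 169 TPM in the same order of groups. Below these the order differed between groups. In MGT+TMP269 cells Igf1r and Igf2r followed with overlapping libraries, then Igfbp5, Igfbp3, Igfbp4, Igfbp6 and Igf1, and Igf2 at the end. The libraries of Igfbp4, Igfbp6 and Igf1 overlapped there, and those of the other neighbours in this order did not. In MGT cells the order was Igf1, Igf2r, Igf1r, Igfbp5, Igfbp4, Igfbp3, Igfbp6 and Igf2, with overlap between Igf1 and Igf2r, between Igf1r and Igfbp5, and between Igfbp4 and Igfbp3. In DsRed cells Igfbp3 and then Igf1 came after Igfbp2, each clear of its neighbours. Igf2r, Igfbp6, Igf1r, Igfbp4 and Igfbp5 followed with overlapping libraries, and Igf2 lay below them all.

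**Figure D1:**
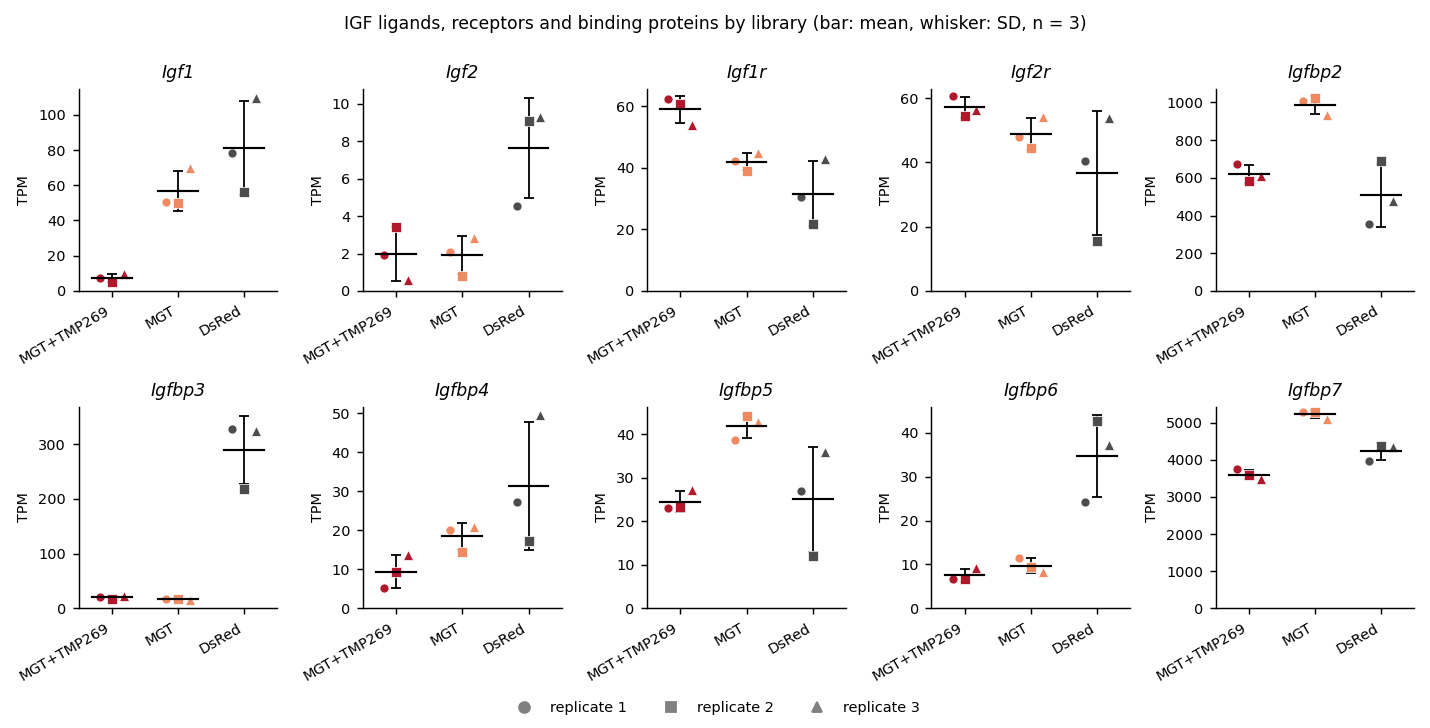
TPM of the 10 members in each of the 9 libraries, with a panel per gene and its own axis from 0. Points are libraries, with a shape per replicate number, horizontal lines are group means and whiskers SD (n = 3). Igfbp3 and Igfbp6 are low in all 6 MGT+TMP269 and MGT libraries, and Igf1 is low in the 3 MGT+TMP269 libraries.

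MGT against DsRed asks what the reprogramming factors changed by themselves. Igfbp3, Igfbp6 and Igf2 fell and Igfbp2 and Igfbp7 rose, so that 5 of the 10 members were called (3 lower, 2 higher), while 12.3% of all tested genes were called (4.18% lower, 8.14% higher). Without DsRed replicate 2, 4 members were called (2 lower, 2 higher), and 26.3% of all genes. The members' median log2 fold change was −0.09, against 0.11 over all genes tested. MGT and DsRed libraries did not overlap for 3 members in each direction, and for 28.7% of all genes (19.1% higher, 9.63% lower). Calls are limma's at an adjusted p under 0.05, and log2 fold changes are of TPM + 1, given with their SE. The median of 0.11 became −0.01 under median-ratio scaling, and 66.1% of calls were higher as deposited, 56.1% under median-ratio and 51.2% under quantile scaling.

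Igfbp3, the main carrier of IGFs in serum, was at 17.2, 17.8 and 14.9 TPM in the MGT libraries, against 327.3, 218.3 and 323.7 TPM in the DsRed libraries. All DsRed libraries lay more than 10 times above all MGT libraries. Its mean was 17.4-fold lower in MGT cells (log2 −4.02 ± 0.18, adjusted p = 5.19e-07), and 19.6-fold lower without DsRed replicate 2. Igfbp6, which prefers IGF-2 to IGF-1, was at 11.5, 9.44 and 8.21 TPM in MGT, against 24.3, 42.6 and 37.2 TPM in DsRed libraries. It was 3.56-fold lower in MGT cells without overlap of the groups (log2 −1.71 ± 0.23, adjusted p = 0.000989). Both calls held in all 17 alternative fits. In the same comparison 6 of 12 fibroblast markers fell and 1 rose, and the summed TPM of 10 endothelial markers ran from 15.7 to 23.9 in MGT and from 27.0 to 34.2 in DsRed libraries. Of 6 tested endothelial markers limma called 0, with 4 at an unadjusted p under 0.05 and 2 called lower without DsRed replicate 2. Of 8 epicardial and mesothelial markers 4 fell and 3 rose. The part of these cell types in the values was not tested.

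Igf2, the fetal growth factor that Igfbp6 binds, was the least abundant member in every group. Its MGT libraries were at 2.10, 0.82 and 2.84 TPM, against 4.56, 9.07 and 9.29 TPM in DsRed libraries. The groups did not overlap, and the mean was 3.98-fold lower in MGT cells (log2 −1.58 ± 0.43, adjusted p = 0.0432). That call was lost without any 1 of MGT replicates 1, 2 and 3, DsRed replicates 2 and 3 or MGT+TMP269 replicate 1, with an adjusted p of up to 0.155. Igf1 was at 50.3, 49.9 and 69.8 TPM in MGT and at 78.0, 56.3 and 109.4 TPM in DsRed libraries. These ranges overlapped, and Igf1 was not called (log2 −0.48 ± 0.29, 95% interval −1.12 to 0.17, adjusted p = 0.351), also without DsRed replicate 2 (log2 −0.71, adjusted p = 0.0948).

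Igfbp2, a binding protein of fetal and growing tissues, went the other way. It was at 1009, 1022 and 932 TPM in MGT, against 357, 690.0 and 475 TPM in DsRed libraries, with DsRed replicate 2 the highest of its group. The mean was 1.95-fold higher in MGT cells (log2 1.01 ± 0.20, adjusted p = 0.00937), and 2.38-fold higher without that library. Under median-ratio scaling the call was lost at a log2 of 0.87 (adjusted p = 0.0981). Igfbp7 was 1.24-fold higher, with 5289, 5289 and 5093 TPM in MGT and 3953, 4371 and 4346 TPM in DsRed libraries (log2 0.31 ± 0.08, adjusted p = 0.0394). Although its groups did not overlap, its call was lost on leaving out DsRed replicate 1 or any single library of the MGT+TMP269 or MGT groups (adjusted p up to 0.16), and under median-ratio scaling it was 0.17 (adjusted p = 0.596).

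The other binding proteins and both receptors were not called. Igfbp5, which binds matrix as well as IGFs, was at 38.6, 44.0 and 42.8 TPM in MGT, against 27.0, 12.1 and 35.9 TPM in DsRed libraries (log2 0.85 ± 0.32, adjusted p = 0.133). Its groups did not overlap. The log2 difference of Igfbp5 was 0.41 without DsRed replicate 2 (adjusted p = 0.0585) and 1.16 without DsRed replicate 3, where it was called (adjusted p = 0.0298). Igfbp4, an inhibitory binding protein and the best known substrate of PAPP-A, was at 14.5 to 21.0 TPM in MGT and 17.3 to 49.5 TPM in DsRed libraries (log2 −0.63 ± 0.40, adjusted p = 0.386), and its log2 difference was −0.97 without DsRed replicate 2 (adjusted p = 0.0989). Igf1r was at 39.1 to 44.6 TPM in MGT and 21.6 to 42.7 TPM in DsRed libraries (log2 0.45 ± 0.21, adjusted p = 0.234). The log2 difference of Igf1r was 0.21 without DsRed replicate 2 (adjusted p = 0.325) and 0.68 without DsRed replicate 3, where it was called (adjusted p = 0.0296). Igf2r was at 44.6 to 54.3 TPM in MGT and 15.7 to 53.7 TPM in DsRed libraries, where replicate 2 gave the lowest value (log2 0.57 ± 0.36, adjusted p = 0.381). Without that replicate the log2 difference of Igf2r was 0.0648 (adjusted p = 0.77).

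MGT+TMP269 against MGT asks what the compound changed on top of the factors. Igf1 and Igfbp7 fell, which makes 2 of 10 members called, both lower, while 9.29% of all genes were called (5.97% lower, 3.32% higher). MGT+TMP269 and MGT libraries did not overlap for 8 of the 10 members (5 lower, 3 higher), and for 49.3% of all genes (16.6% lower, 32.7% higher). With DsRed replicate 2 left out, 5 members were called (4 lower, 1 higher), and 30.6% of all genes. The median log2 fold change was −0.43 over the members, against 0.11 over all genes.

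Igf1 was at 7.33, 4.86 and 9.83 TPM in MGT+TMP269 libraries, against 50.3, 49.9 and 69.8 TPM in MGT libraries. Every MGT library lay at least 5 times above every MGT+TMP269 library. Its mean was 7.72-fold lower with the compound (log2 −2.82 ± 0.29, adjusted p = 0.000376), and the call held in all 17 alternative fits. Macrophages are a source of Igf1, and their markers moved in the same direction here. Of 15 tested macrophage markers, 15 fell with TMP269, and their defining genes Adgre1 and C1qa averaged 3.41 and 3.40 TPM in MGT+TMP269 cells, against 61.8 and 155 TPM in MGT cells. None of the 17 marker genes was at 0 in every MGT+TMP269 library, and 6 averaged under 1 TPM there. Fibroblast markers fell too, 7 of 12, with none higher, and their summed TPM ran from 8479 to 8754 in MGT+TMP269 and from 15288 to 15921 in MGT libraries. Their part in the fall of Igf1 was not tested. MGT libraries held 1866 to 3500.3 TPM of macrophage markers with 49.9 to 69.8 TPM of Igf1. DsRed replicates 1, 2 and 3 held 740.4, 757 and 2052 TPM of these markers with 78.0, 56.3 and 109.4 TPM of Igf1. The fibroblast markers summed to 20935.5, 14376 and 22212 TPM in these 3 libraries.

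**Figure D2:**
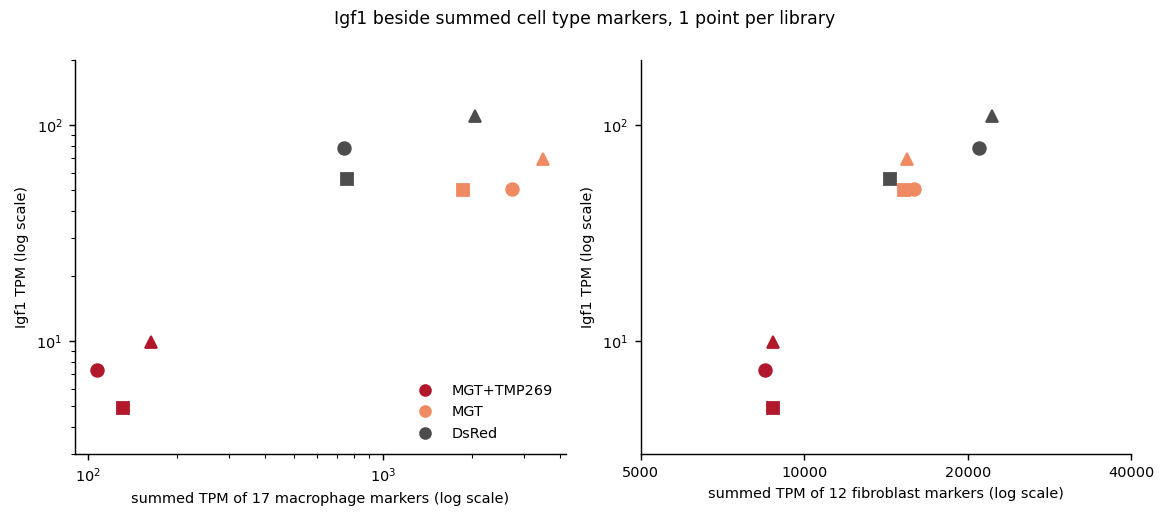
Igf1 TPM (vertical, log scale) against the summed TPM of 17 macrophage markers and of 12 fibroblast markers (horizontal, log scale), with 1 point per library, a colour per group and a shape per replicate number (circle 1, square 2, triangle 3). The MGT+TMP269 libraries lie lowest on all axes, MGT replicates 1 and 3 have most of the macrophage markers, and DsRed replicate 3 has most Igf1. MGT replicate 2 lies below DsRed replicate 3 for these markers, at 1866 against 2052 TPM.

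Igfbp7 was at 3741, 3582 and 3480.4 TPM in MGT+TMP269 libraries, against 5289, 5289 and 5093 TPM in MGT libraries. It was 1.45-fold lower with TMP269 (log2 −0.54 ± 0.08, adjusted p = 0.00338), and 0.0509 was the adjusted p under median-ratio scaling. Igfbp2 was at 676, 581.0 and 609.6 TPM in MGT+TMP269 libraries, again below all MGT libraries at 932 to 1022 TPM. Its 1.59-fold difference did not reach the threshold in the model of 9 libraries (log2 −0.67 ± 0.20, adjusted p = 0.0775). Without DsRed replicate 2, Igfbp2 was called lower (adjusted p = 0.00265), and likewise without DsRed replicate 1 (adjusted p = 0.0216).

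Igfbp5 had 23.0, 23.1 and 27.3 TPM in MGT+TMP269 libraries, against 38.6, 44.0 and 42.8 TPM in MGT libraries (log2 −0.75 ± 0.32, adjusted p = 0.207). Without DsRed replicate 2 it was called lower (adjusted p = 0.00282), as it was under median-ratio scaling (0.0374) and quantile scaling (0.0221). Igfbp4 was at 5.23, 9.32 and 13.7 TPM in MGT+TMP269 libraries and 20.0, 14.5 and 21.0 TPM in MGT libraries (adjusted p = 0.191). All binding proteins but Igfbp3 had a lower mean with TMP269. Igfbp3 was at 20.5 ± 2.40 TPM in MGT+TMP269 and 16.6 ± 1.51 TPM in MGT cells (95% interval of the log2 difference −0.12 to 0.69). For Igfbp6 the values were 7.54 ± 1.44 and 9.73 ± 1.69 TPM (interval −0.86 to 0.20), and for Igf2 1.98 ± 1.43 and 1.92 ± 1.02 TPM (interval −0.996 to 0.95).

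Each MGT+TMP269 library lay above each MGT library for both receptors, as for 32.7% of all genes tested. Neither receptor was called in the model of 9 libraries. Igf1r was at 62.4, 60.5 and 53.8 TPM with TMP269, against 42.3, 39.1 and 44.6 TPM in MGT libraries (log2 0.48 ± 0.21, adjusted p = 0.231). It was called without DsRed replicate 2 (adjusted p = 0.023). Igf2r was at 60.6, 54.5 and 56.3 TPM with TMP269, against 47.8, 44.6 and 54.3 TPM in MGT libraries (adjusted p = 0.788). Its lowest library with TMP269 was at 54.46 TPM and its highest MGT library at 54.28 TPM.

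MGT+TMP269 against DsRed gives the sum of both steps, and it shares its libraries with the other comparisons. Here 6 of 10 members were called, 5 lower and 1 higher, while 22.8% of all genes were called (8.06% lower, 14.7% higher). Leaving out DsRed replicate 2 gave 7 members (5 lower, 2 higher) and 36.6% of all genes. The members' median was −0.91, against 0.22 over all genes. The share of calls that were higher was 64.7% as deposited, 47.1% under median-ratio and 50.7% under quantile scaling. Libraries of MGT+TMP269 and DsRed did not overlap for 6 members that were lower and 2 that were higher, and for 41.9% of all genes (12.1% lower, 29.8% higher).

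Igfbp3 was 14.1-fold lower (log2 −3.74 ± 0.18, adjusted p = 6.86e-07), Igf1 11.1-fold lower (−3.30 ± 0.29, adjusted p = 3.73e-05) and Igfbp6 4.599-fold lower (−2.04 ± 0.23, adjusted p = 0.000225) in MGT+TMP269 cells. These 3 calls held in all 17 alternative fits. In this comparison 14 of 15 macrophage and 9 of 12 fibroblast markers fell too, while 1 fibroblast marker, Thy1, rose. The part of these cell types was not tested. Igfbp4 was 3.33-fold lower (−1.60 ± 0.40, adjusted p = 0.019), but not called without MGT+TMP269 replicate 1 or 2 (adjusted p up to 0.0715). Igf2 was 3.86-fold lower (adjusted p = 0.0262), a call lost without MGT+TMP269 replicate 1 or 3 or DsRed replicate 2 or 3 (adjusted p up to 0.0897). Igf1r was the member that rose, 1.86-fold (0.93 ± 0.21, adjusted p = 0.0133) and 1.61-fold without DsRed replicate 2, and its call was lost without MGT+TMP269 replicate 1 or 2 (adjusted p up to 0.0543).

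Igfbp2, Igfbp5 and Igfbp7, whose mean TPM was highest in MGT cells, were not called between MGT+TMP269 and DsRed. Igfbp2 was 1.23-fold higher in MGT+TMP269 than in DsRed cells (adjusted p = 0.245), and 1.497-fold without DsRed replicate 2, where it was called (adjusted p = 0.00586). Igfbp5 was at 24.5 ± 2.43 TPM in MGT+TMP269 and 24.98 ± 12.04 TPM in DsRed cells, a log2 difference of 0.09 that turned to −0.34 without DsRed replicate 2, −0.15 under median-ratio and −0.18 under quantile scaling. For Igfbp7 the mean was 1.17-fold lower (log2 −0.23 ± 0.08, adjusted p = 0.0745), and under median-ratio scaling the log2 difference was −0.48 (adjusted p = 0.0869). It was called lower without DsRed replicate 2 (adjusted p = 0.0169) and without DsRed replicate 1 (0.0416). Igf2r was at 54.5 to 60.6 TPM in MGT+TMP269 and 15.7 to 53.7 TPM in DsRed libraries (log2 0.79 ± 0.36, adjusted p = 0.141). The log2 difference of Igf2r was 0.29 without DsRed replicate 2 (adjusted p = 0.127) and 1.14 without DsRed replicate 3, where it was called (adjusted p = 0.034).

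**Figure D3:**
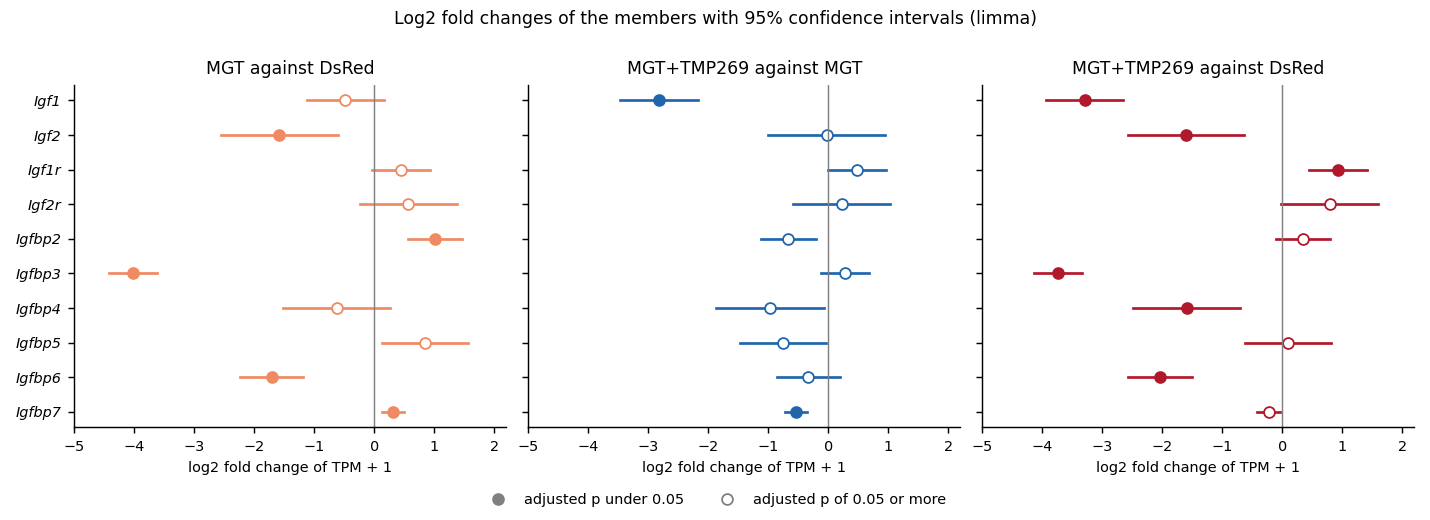
Log2 fold changes of TPM + 1 (horizontal) of the 10 members in the 3 comparisons, with 95% confidence intervals from limma. Filled points have an adjusted p under 0.05: 5 members in MGT against DsRed, 2 in MGT+TMP269 against MGT and 6 in MGT+TMP269 against DsRed.

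The make-up of the binding proteins differed between the groups, and is described here without a test. Leaving out Igfbp7, Igfbp2 made up 89.3% to 92.4% of the TPM of Igfbp2 to Igfbp6 in MGT+TMP269 libraries, 91.5% to 92.3% in MGT libraries and 46.8% to 70.4% in DsRed libraries. Igfbp3 made up 2.81% to 3.32%, 1.46% to 1.60% and 22.3% to 42.9% in these groups. DsRed cells thus held a pool of Igfbp2 and Igfbp3 transcripts, and both MGT groups a pool made almost entirely of Igfbp2. The total of Igfbp2 to Igfbp6 was 684 ± 46.7 TPM in MGT+TMP269, 1074 ± 48.4 TPM in MGT and 888 ± 113 TPM in DsRed cells. Ligand transcripts, Igf1 and Igf2 together, were at 8.30 to 10.4 TPM in MGT+TMP269, 50.7 to 72.6 TPM in MGT and 65.4 to 118.7 TPM in DsRed libraries. For each ligand transcript there were 65.5 to 79.1 transcripts of Igfbp2 to Igfbp6 in MGT+TMP269, 14.0 to 21.8 in MGT and 7.76 to 15.0 in DsRed libraries. The ranges of MGT and DsRed met only through DsRed replicate 2, and MGT+TMP269 lay above both. Igf2r transcripts per Igf1r transcript were close to 1, at 0.90 to 1.05 in MGT+TMP269, 1.13 to 1.22 in MGT and 0.725 to 1.32 in DsRed libraries.

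Genes that act on the ligands and binding proteins were read from a list of 18, of which 12 passed the filter. Between MGT and DsRed 2 rose and 3 fell (median log2 −0.18), between MGT+TMP269 and MGT 3 fell and none rose (−0.18), and between MGT+TMP269 and DsRed 4 rose and 4 fell (−0.13). Of all genes, 12.3%, 9.29% and 22.8% were called. In the fit that omits DsRed replicate 2 the list had 3 higher and 5 lower, 4 higher and 4 lower, and 4 higher and 4 lower, beside 26.3%, 30.6% and 36.6% of all genes. Pappa, the protease PAPP-A that cuts Igfbp4, was at 7.74, 8.15 and 7.79 TPM in MGT+TMP269, 21.9, 21.7 and 23.3 TPM in MGT and 42.8, 10.8 and 39.7 TPM in DsRed libraries. All MGT+TMP269 libraries lay below all MGT libraries, and DsRed replicate 2 lay far below the others of its group. Pappa was not called with TMP269 against MGT (log2 −1.39 ± 0.42, adjusted p = 0.0772), and was called lower without DsRed replicate 2 (adjusted p = 1.3e-05). Against DsRed, Pappa was lower in MGT+TMP269 (log2 −1.63 ± 0.42, adjusted p = 0.0216), a call lost without any single MGT+TMP269 library or DsRed replicate 1 or 3 (adjusted p up to 0.0672). Pappa was not called in MGT against DsRed (log2 −0.25, adjusted p = 0.772), but fell by 0.86 on the log2 scale without DsRed replicate 2 (adjusted p = 0.000158).

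Stc2, stanniocalcin-2, an inhibitor of PAPP-A, rose in MGT cells against DsRed cells. It was at 37.9, 41.7 and 38.5 TPM in MGT+TMP269, 32.1, 46.3 and 42.8 TPM in MGT and 9.08, 4.25 and 9.59 TPM in DsRed libraries (MGT against DsRed log2 2.31 ± 0.26, adjusted p = 0.00032). The difference of MGT+TMP269 from MGT was not called (log2 −0.02 ± 0.26, adjusted p = 0.977). Its relative Stc1 was below 1 TPM in every library. Htra1, a serine protease that can cut IGF-binding proteins, was 460 ± 17.5 TPM in MGT and 311 ± 36.1 TPM in DsRed cells (adjusted p = 0.00577, and 0.204 under median-ratio scaling). It was at 599 ± 28.7 TPM with TMP269 and rose against DsRed (adjusted p = 0.000177). Among other proteases that can cut binding proteins, Mmp2 was at 63.4 ± 5.23, 187 ± 12.4 and 662 ± 69.1 TPM in MGT+TMP269, MGT and DsRed cells, and Mmp3 at 9.10 ± 2.79, 27.4 ± 4.22 and 163 ± 18.8 TPM, and both fell in all 3 comparisons (highest adjusted p 0.00189). Ctsd, the lysosomal protease cathepsin D, was at 1686 ± 14.1, 2383 ± 215 and 1855 ± 192 TPM in these groups. It fell with TMP269 against MGT (log2 −0.49 ± 0.11, adjusted p = 0.0181), a call lost without any single MGT+TMP269 library or MGT replicate 1 or 3 (adjusted p up to 0.0967). Ctsd also missed the threshold there with median-ratio scaling (adjusted p = 0.0512) or quantile scaling (0.102). In MGT against DsRed, Ctsd was not called (log2 0.36, adjusted p = 0.0549), and was called higher without DsRed replicate 2 (adjusted p = 0.0287).

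Circulating partners of the system were nearly silent in these cells. Igfbp1, the liver form that was not among the members, and Igfals, the acid-labile subunit of the serum complex, were at most 0.141 and 0.0578 TPM in any library. Insr, the insulin receptor, was at 16.5 ± 0.285 TPM in MGT+TMP269, 10.3 ± 0.558 TPM in MGT and 7.94 ± 3.65 TPM in DsRed cells. It rose in MGT+TMP269 against DsRed (log2 1.07 ± 0.30, adjusted p = 0.0307), a call lost without any single MGT+TMP269 or MGT library (adjusted p up to 0.089). With TMP269 against MGT it was called higher without DsRed replicate 2 (log2 0.64, adjusted p = 0.000879, and 0.259 with that library).

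**Figure D4:**
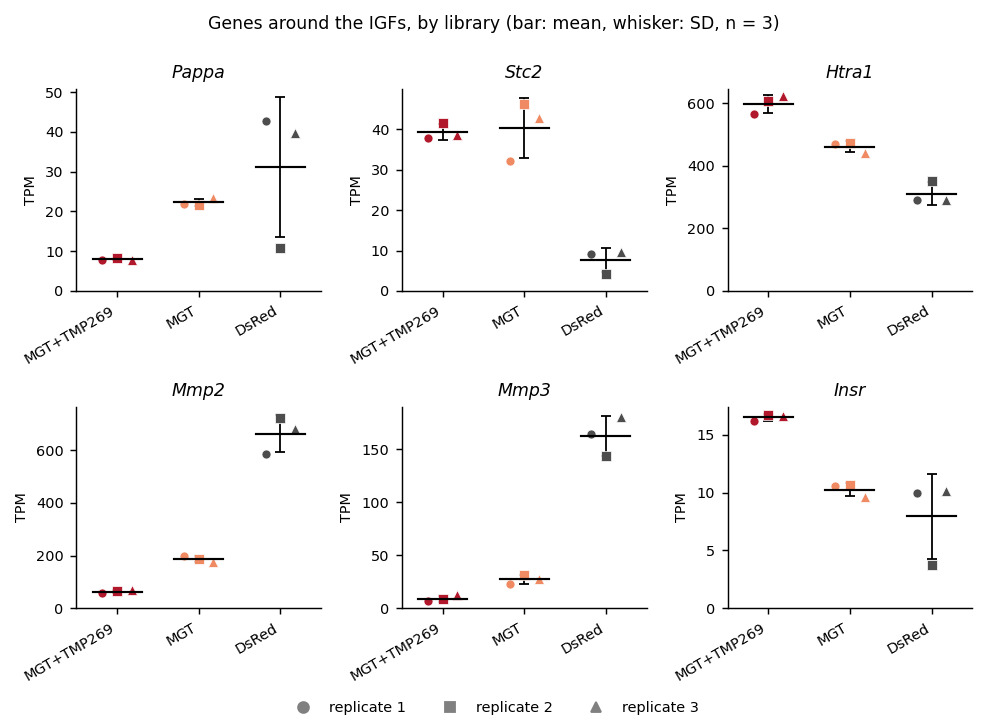
TPM of Pappa, Stc2, Htra1, Mmp2, Mmp3 and Insr in each library, with a panel per gene and its own axis from 0. Points are libraries with a shape per replicate number, lines are group means and whiskers SD (n = 3), and DsRed replicate 2 is the lowest of its group for Pappa, Stc2, Mmp3 and Insr.

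The intracellular chain below the receptors was read from 32 tested genes for insulin and IGF signal transduction. Of these, 2 rose and 1 fell between MGT and DsRed (median 0.05), 1 rose and 1 fell between MGT+TMP269 and MGT (0.23), and 4 rose and 1 fell between MGT+TMP269 and DsRed (0.34). Without DsRed replicate 2 these counts were 3 higher and 11 lower, 10 higher and 2 lower, and 9 higher and 6 lower. The shares of all genes called were 12.3%, 9.29% and 22.8% with that library and 26.3%, 30.6% and 36.6% without it. Grb14, an adaptor that restrains the insulin receptor, was at 29.2 ± 4.12 TPM in MGT+TMP269, 50.6 ± 4.56 TPM in MGT and 20.6 ± 1.84 TPM in DsRed cells. It rose in MGT against DsRed (log2 1.25 ± 0.14, adjusted p = 0.000336) and fell with TMP269 against MGT (−0.78 ± 0.14, adjusted p = 0.00934), and this second call was lost without MGT+TMP269 replicate 1 or 2 or MGT replicate 2. Socs2, a feedback inhibitor of growth hormone signalling, fell in MGT to 18.5 ± 0.933 TPM, against 34.5 ± 4.44 TPM in DsRed cells (adjusted p = 0.00362). Foxo1, a transcription factor that AKT keeps out of the nucleus, was 8.69 ± 0.553 TPM in MGT and 4.42 ± 0.819 TPM in DsRed cells (adjusted p = 0.0103, lost without MGT replicate 3). Tsc2 was the one higher with TMP269 against MGT, a call lost in 7 of 9 fits without a library (adjusted p up to 0.183). Foxo4, higher in MGT+TMP269 against DsRed, lost its call without MGT+TMP269 replicate 2 or 3 (adjusted p up to 0.0586). Grb14 was also called higher there. That call was lost in 8 of 9 fits without a library (adjusted p up to 0.161) and under median-ratio scaling (0.429).

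Transcripts that FOXO factors raise and insulin or IGF-1 lowers in many tissues were read from a list of 18, all tested. Of these, 4 rose and none fell between MGT and DsRed (median 0.35), 8 rose and none fell between MGT+TMP269 and MGT (0.57), and 10 rose and none fell between MGT+TMP269 and DsRed (0.68). Of all genes, 12.3%, 9.29% and 22.8% were called in these comparisons. With DsRed replicate 2 left out the counts were 5 higher and 5 lower, 14 higher and 0 lower, and 12 higher and 2 lower, beside 26.3%, 30.6% and 36.6% of all genes called. Of the 4 that rose in MGT against DsRed, Fbxo32, Bcl6 and Pdk4 were not called with only these 2 groups in the fit. Trim63 kept its call there in all 17 alternative fits. With a library left out, Fbxo32 lost its call in 7 fits, Pdk4 in 2 and Bcl6 in 1 (adjusted p up to 0.115). Gabarapl1, higher with TMP269 against MGT, lost its call in 4 such fits (adjusted p up to 0.0678). Trim63, a ubiquitin ligase of striated muscle, was at 26.7 ± 1.92 TPM in MGT+TMP269 and 8.45 ± 0.371 TPM in MGT cells (log2 1.55 ± 0.22, adjusted p = 0.00222), and at 0.756 ± 0.543 TPM in DsRed cells. Pik3ip1, an inhibitor of PI3K, was at 48.5 ± 1.51 TPM in MGT+TMP269 and 21.5 ± 0.385 TPM in MGT cells (log2 1.14 ± 0.17, adjusted p = 0.00258). Txnip, which limits glucose uptake, was at 415 ± 16.8 TPM in MGT+TMP269 and 197 ± 11.2 TPM in MGT cells (log2 1.07 ± 0.17, adjusted p = 0.00441, and 0.0586 under median-ratio scaling). Trim63 is a gene of muscle, and 6 of 10 cardiomyocyte markers rose and none fell in the same comparison. Their part in this was not tested.

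Imprinted genes often expressed together with Igf2 went both ways. Of 12 tested, 1 rose and 1 fell between MGT and DsRed, 1 rose between MGT+TMP269 and MGT, and 2 rose and 3 fell between MGT+TMP269 and DsRed. With DsRed replicate 2 left out the counts were 1 higher and 4 lower, 2 higher and 2 lower, and 2 higher and 5 lower. The shares of all genes called were 12.3%, 9.29% and 22.8%, and 26.3%, 30.6% and 36.6% without that library. Asb4 rose in all 3 comparisons. It averaged 8.93 ± 0.651 TPM in MGT+TMP269, 4.17 ± 0.358 TPM in MGT and 1.27 ± 0.379 TPM in DsRed cells. Its calls against DsRed held in all 17 alternative fits. The call against MGT was lost without MGT+TMP269 replicate 2 or 3 or MGT replicate 1 or 3 (adjusted p up to 0.0706). Peg3 was higher in MGT+TMP269 (15.5 ± 2.07 TPM) than in DsRed cells (6.99 ± 2.95 TPM). This call was lost without MGT+TMP269 replicate 2 or 3 (adjusted p up to 0.077). Slc38a4, an amino acid transporter, was the one lower in MGT, at 0.211 ± 0.115 TPM in MGT and 2.71 ± 1.79 TPM in DsRed cells (adjusted p = 0.0197, lost without any single MGT library). It passed the filter only through its DsRed libraries, at 4.56, 0.973 and 2.61 TPM, and was at most 0.336 TPM in all others. Plagl1, a zinc finger factor that activates Igf2 in mice, was at 2.99 ± 0.512 TPM in MGT+TMP269 and 12.1 ± 5.62 TPM in DsRed cells (adjusted p = 0.014, lost without MGT+TMP269 replicate 2 or 3). Of 4 genes that make or read the mannose 6-phosphate tag for which Igf2r is a receptor, limma called 0 in each comparison. At an unadjusted p under 0.05 there were 0 in MGT+TMP269 against MGT, 0 in MGT+TMP269 against DsRed and 0 in MGT against DsRed. Without DsRed replicate 2, 1 was called higher in MGT+TMP269 against MGT and 1 lower in MGT against DsRed.

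The genes whose profile over the 9 libraries lay closest to a member were found by the root-mean-square difference of log2 values, after each gene was centred on its own mean. For Igfbp3 they were Gas1 (difference 0.50), Id1 (0.57) and Srpx (0.62), and none of these had a profile as near as the nearest genes of Igf1, Igfbp6 or Igf2. The difference is not scaled to the size of a gene's changes. Igfbp3 had the largest span of group means, at log2 4.02, against 3.30, 2.04 and 1.60 for Igf1, Igfbp6 and Igf2. Igf1 was followed by Rgs4 (0.27), the calponin Cnn1 (0.31) and Srpx2 (0.32). Cnn1 was at 21.2 ± 2.71 TPM in MGT+TMP269, 142.5 ± 2.23 TPM in MGT and 282 ± 73.2 TPM in DsRed cells. Igfbp6 had Ier5l (0.17), Rprm (0.26) and Slc1a6 (0.26) as nearest, and Igf2 had Mdk (0.38), Wnt11 (0.42) and Klhdc8a (0.44).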

How the data were processed

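RNA sequencing of total RNA was done in 9 libraries, 3 per group, at day 14. The authors deposited a table of TPM values for every gene symbol in each library. The submitters' processing notes list kallisto, DESeq2 and build mm9, with no version, role, annotation or strand setting. In TPM, depth is lost and each value is relative to the total. Of 34804 lines, 25 with a date in place of a symbol were left out.

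limma 3.58.1 (R 4.3.3) was fitted to log2(TPM + 1) of the 13228 genes that averaged 1 TPM or more, with the group as the only term, 9 libraries (6 residual degrees of freedom), a variance trend and two-sided p-values with Benjamini-Hochberg adjustment over all genes, called under 0.05. Log2 fold changes on this scale understate changes of low genes such as Igf2. Folds are ratios of mean TPM. The fit was tested on simulated data. Named were all members, up to 4 called genes per pathway list and comparison with the smallest adjusted p, Igfbp1, Igfals, Pappa, Stc1, Stc2 and Insr, and for 4 members the 3 genes of closest profile. Marker genes Adgre1 and C1qa were chosen after their values were seen. Members and lists were chosen with earlier results of these data known. All 10 members matched RefSeq promoter records of build GRCm38.p6, which is not the submitters' build and serves only to show sequence. The 17 alternative fits changed the pseudocount, filter, scaling, groups in the fit, weights or replicate block, or left out a library.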

Additional observations from a re-analysis of the deposited data

How the results depend on the processing

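Each of 30 member log2 fold changes was recomputed in 17 alternative fits, and of 510 values 439 kept their direction and side of the threshold, 39 lost a call, 23 gained one and 9 changed sign. The calls of Igfbp3 and Igfbp6 against DsRed and of Igf1 with TMP269 held in every fit.

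Counts of members called moved as follows. For MGT against DsRed (5), 3 were called with no filter on low values, 3 under median-ratio scaling and 3 with the replicate block, and 3 to 6 with a library left out. For MGT+TMP269 against MGT (2), 5 were called with only these 2 groups in the fit, 7 with array weights and 2 to 5 with a library left out. For MGT+TMP269 against DsRed (6), 3 were called with only the 2 groups and 3 to 7 with a library left out. Over all genes, MGT against DsRed had 1630 calls, 1066 with only the 2 groups, 2915 with array weights and 1068 to 3476 with a library left out. MGT+TMP269 against MGT had 1229 calls, 4476 with only the 2 groups, 4818 with array weights and 635 to 4054 with a library left out. MGT+TMP269 against DsRed had 3016 calls, 1789 with only the 2 groups and 1865 to 4848 with a library left out. The highest counts over all genes with a library left out come from leaving out DsRed replicate 2, whose array weight was 0.05, against 0.695 to 2.09 in the other libraries. The cause of the other shifts was not tested.

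Changes of sign concerned values near 0. Igf2 with TMP269 against MGT (−0.03) was 0.0033 at a pseudocount of 5 and 0.12 under quantile scaling, and ran from −0.37 to 0.37 with a library left out. Igfbp5 in MGT+TMP269 against DsRed (0.09) was −0.15 under median-ratio scaling, −0.18 under quantile scaling and −0.26 with array weights, and ran from −0.34 to 0.41 with a library left out. Stc2 with TMP269 against MGT (−0.02) was 0.013 with array weights and ran from −0.17 to 0.0834 with a library left out, and Pappa in MGT against DsRed (−0.25) ran from −0.86 to 0.0841.

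The labels share replicate numbers across groups but state no shared batch. Deviations of same-numbered libraries from their group means correlated at −0.0698 to 0.132, over 0.1 in 1 of 9 pairs, against −0.135 to 0.0804 in the other 18 pairs, so the numbers are not treated as pairs. With the replicate block, Igf2 (adjusted p = 0.0827) and Igfbp7 (0.0974) were not called in MGT against DsRed, nor Igf2 in MGT+TMP269 against DsRed (0.0506). Read depth is unknown, so the precision of Igf2, at a mean of 3.85 TPM, can be read only from its replicates.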
